A study of Homo sapiens with 9 samples.

Results

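The untreated human line MEG-01 was described by the absolute expression of its genes in the 3 control libraries, taken from a series of 9 libraries in which the other 6 came from cells given As2S2 (arsenic disulfide) or PMA, a phorbol ester that activates protein kinase C. No treated library was used. MEG-01 is a megakaryoblastic line that was established from the bone marrow of a patient with chronic myeloid leukaemia in blast crisis and that carries the Philadelphia chromosome, which joins BCR to ABL1. The labels give no genotype beyond the line, no vehicle, no culture time and no dose for the controls, and they do not say whether the 3 libraries came from separate cultures, so each SD below measures only the spread between these libraries, which may be technical. RNA was poly(A)-selected before sequencing. There was 1 group and no contrast, so no test was made: levels are given per library in the order of control replicates 1, 2 and 3, and an order between 2 genes is given by the number of libraries that show it.

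Levels are transcripts per 1000000 (TPM), in which a gene's read count is divided by the effective length of its transcripts and the results are made to add up to 1000000 per library. A gene was called detected when it had at least 1 TPM in all 3 libraries. By this rule 10751 of 63241 gene IDs (17.0%) were detected, and 9622 of the 19179 IDs whose symbol is a protein-coding gene of RefSeq (50.2%). These shares are the background against which each list below is read. The median coding gene had a mean of 1.30 TPM, 4449 coding genes stood at 10 TPM or more in all 3 libraries and 4019 had no count at all.

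The libraries held 19548898, 18680116 and 20366870 estimated counts. A gene with no count in any library can have had up to 3 counts of the pooled total of 58595884, or 0.0512 counts per 1000000 (CPM), a limit that covers counting error only. Counts of every pair of libraries differed by more than sampling noise, with a chi-square per gene of 15.5 between replicates 1 and 2, 3.55 between 1 and 3 and 12.6 between 2 and 3. Control replicate 2 thus stood apart from the other two. Of the 10751 detected genes, 1030 (9.58%) lay more than 1.5-fold apart in TPM between replicates 1 and 2, and 871 (8.10%) between replicates 2 and 3, against 404 (3.76%) between replicates 1 and 3. The departure of replicate 2 moved with base composition and length: its median log2 TPM ratio to the mean of the other libraries ran from -0.22 for 942 genes whose longest transcript had under 42% G and C to 0.20 for 691 genes over 60%. By implied effective length it ran from 0.03 in genes under 500 nt to -0.23 in the longest bin. The part of this tilt in any gene's spread was not tested, and values per library are given so that replicate 2 can be read separately.

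**Figure D1:**
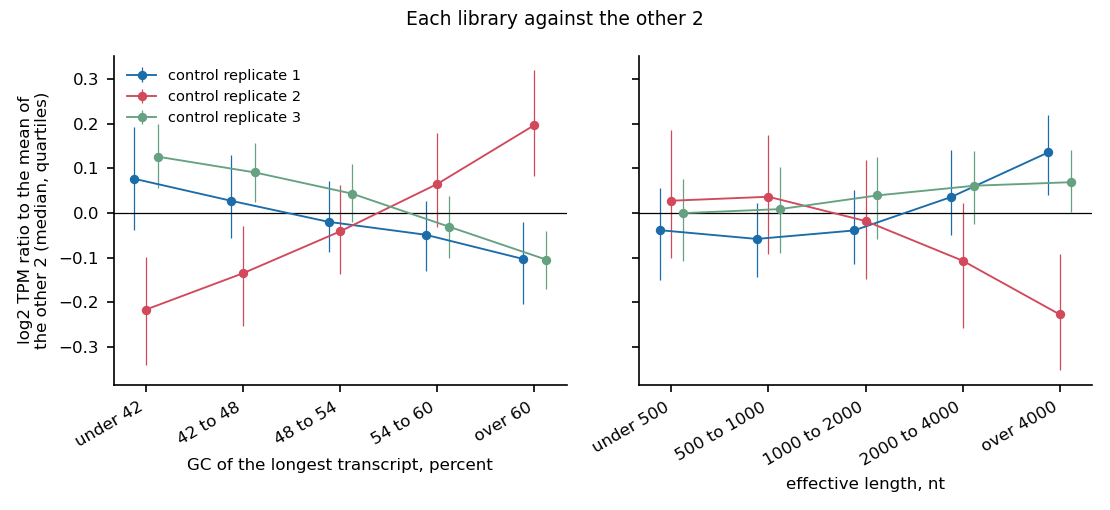
Each control library against the mean of the other 2, as the median log2 TPM ratio (points) with quartiles (bars), over genes averaging 10 TPM or more, binned by the G and C content of the longest transcript (left, percent) and by implied effective length (right, nt). Replicate 2 climbs from -0.22 to 0.20 across the G and C bins, while replicates 1 and 3 go the other way. The opposite slope is built in at least in part, because replicate 2 enters the mean that each of them is set against.

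Megakaryocytes are the large polyploid bone marrow cells that shed platelets. They and red cells arise from a shared progenitor, and the factors GATA1, TAL1, LMO2, LDB1 and NFE2 act in both branches, whereas FLI1 and RUNX1 are tied to the megakaryocyte branch and KLF1 to the red cell branch. A maturing megakaryocyte gains the fibrinogen receptor ITGA2B-ITGB3, then the GP1BA, GP1BB, GP9 and GP5 complex that binds von Willebrand factor, and alpha granules filled with PF4, PPBP and VWF.

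Of the 5 genes taken as markers of the line, 4 were abundant. ITGA2B, the integrin alpha IIb chain (CD41), was measured at 189, 197 and 183 TPM (190 ± 7.08, SD, n = 3). GATA1 stood at 69.07, 82.35 and 67.04 TPM, with replicate 2 the highest. HBG2, a gamma globin gene, stood at 7504, 7863 and 7803 TPM, and MYC, the growth-promoting transcription factor, at 385, 403 and 393 TPM (394 ± 9.05). KIT, the receptor of stem cell factor, was the exception: it was measured at 3.71, 2.98 and 3.54 TPM, above the detection level in every library but below CD33, another early myeloid surface marker, by 61.6 ± 10.2-fold on the TPM scale in 3 of 3 libraries. Their order was HBG2, MYC, ITGA2B, GATA1 and KIT in every library, and no range overlapped the next.

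Among 26 megakaryocyte and platelet surface receptor genes, 16 were detected (61.5%, against 50.2% of coding genes) and the median of their mean levels was 2.85 TPM, against 1.30 TPM over coding genes. The tetraspanin CD63 of lysosome and granule membranes led the list at 289, 283 and 285 TPM, followed by ITGA2B. FCGR2A, the platelet receptor for immunoglobulin G, stood at 179, 183 and 178 TPM, and these ranges did not overlap that of ITGA2B. Its estimated counts were not whole numbers in any library, which is how reads shared between near-identical copies appear, so its level is uncertain. FCER1G, the signalling chain that pairs with the collagen receptor GP6, stood at 86.2, 105 and 98.7 TPM and GP6 itself at 25.63, 25.96 and 24.7 TPM.

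The receptors of thrombin and of fibrinogen were unequal among themselves. F2R (PAR1) was measured at 29.1, 23.1 and 30.5 TPM and F2RL3 (PAR4) at 18.25, 18.03 and 17.77 TPM, with F2R the higher in 3 of 3 libraries. ITGB3, the beta chain that pairs with ITGA2B, was measured at 12.16, 10.82 and 11.98 TPM. On the TPM scale ITGA2B therefore exceeded its partner by 15.5-, 18.2- and 15.3-fold (16.3 ± 1.64), with ranges far apart. The other beta 3 partner, ITGAV, was at 1.12, 0.66 and 1.30 TPM and so missed the detection rule through replicate 2.

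The receptor for von Willebrand factor was present only in part. GP1BA, its ligand-binding chain, was detected at 4.20, 3.79 and 4.42 TPM. GP9 was under 1 TPM in all 3 libraries with 29 counts in all, GP1BB had 9 counts and GP5 had 1 count. CLEC1B, the podoplanin receptor, had 2 counts over the 3 libraries. No count fell on TREML1, a platelet granule receptor, or on P2RY12, the ADP receptor targeted by antiplatelet drugs, whereas the other ADP receptor, P2RY1, was measured at 2, 1.19 and 1.86 TPM.

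The bases just upstream of 4 of these genes are shown because the genes are alike in being platelet genes and differ in level: ITGA2B and GP6 were detected, and GP5 and the granule gene PPBP were not. Each run is the 200 bases before the RefSeq start (build GRCh38.p14), read 5′ to 3′ on the gene's strand, and capitals mark 3 short words found on either strand: the GATA word (spelled AGATAA or AGATAG, also with T as the first base), CCAAT and CACCC. None of the marked words overlapped another.
ITGA2B: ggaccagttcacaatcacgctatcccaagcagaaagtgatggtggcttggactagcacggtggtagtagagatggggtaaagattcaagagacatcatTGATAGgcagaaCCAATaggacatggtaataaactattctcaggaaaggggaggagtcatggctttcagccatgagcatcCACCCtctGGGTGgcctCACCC
GP6: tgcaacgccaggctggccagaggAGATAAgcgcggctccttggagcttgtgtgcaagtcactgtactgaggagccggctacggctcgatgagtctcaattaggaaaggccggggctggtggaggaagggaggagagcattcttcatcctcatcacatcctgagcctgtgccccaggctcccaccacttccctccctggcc
GP5: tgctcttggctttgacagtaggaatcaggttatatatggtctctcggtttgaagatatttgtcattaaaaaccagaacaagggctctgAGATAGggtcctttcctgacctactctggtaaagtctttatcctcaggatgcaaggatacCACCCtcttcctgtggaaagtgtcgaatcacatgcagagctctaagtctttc
PPBP: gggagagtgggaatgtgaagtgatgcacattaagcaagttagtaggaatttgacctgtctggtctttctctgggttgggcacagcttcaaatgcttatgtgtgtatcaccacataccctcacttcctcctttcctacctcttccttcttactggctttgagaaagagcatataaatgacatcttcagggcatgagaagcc
ITGA2B lies on the minus strand with its window at chr17:44389650-44389849, GP6 on the minus strand at chr19:55038265-55038464, GP5 on the minus strand at chr3:194399267-194399466 and PPBP on the minus strand at chr4:73988191-73988390. A GATA word stood in the windows of ITGA2B, GP6 and GP5, and no marked word stood in that of PPBP, so the word was found at both a detected and an undetected gene. Over windows of the same length, 18.3% of the 27305 promoters of the table held a GATA word, 28.9% CCAAT and 47.1% CACCC, and these promoters include those of noncoding genes. Among the 7983 detected coding genes matched to a promoter the shares were 8.99%, 32.3% and 49.5%. The table held 20 of the 26 surface receptor genes (76.9%), under the 80% set as a minimum, so no share is given over the list. A match is a description of these letters and not a binding site.

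**Figure D2:**
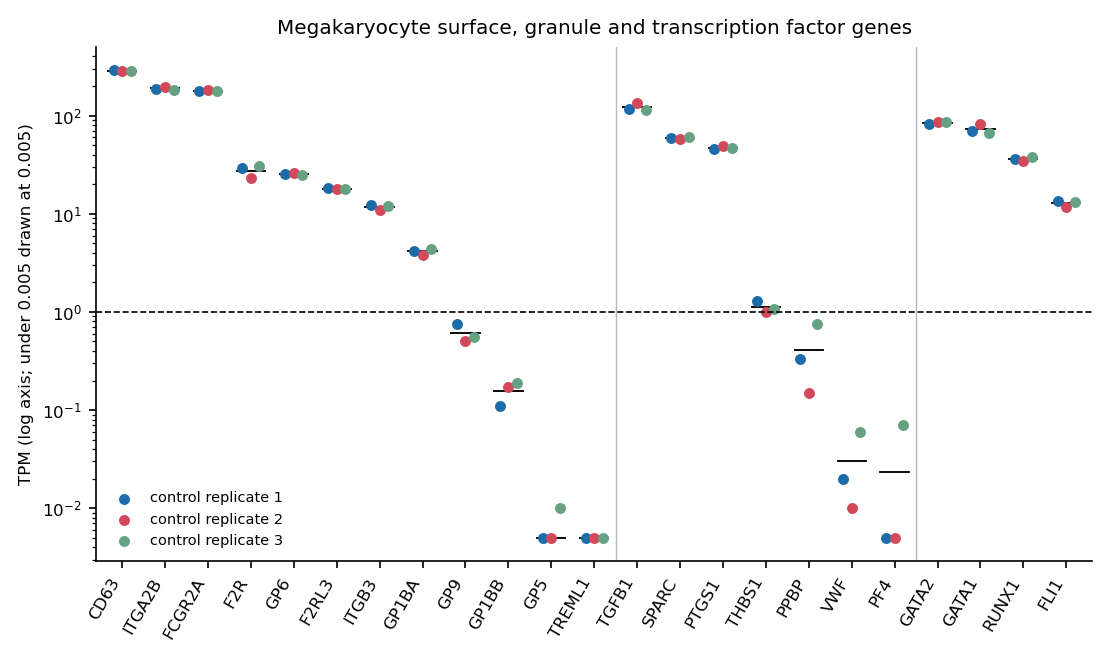
TPM (log axis) of megakaryocyte surface genes (left block), granule and enzyme genes (middle block) and transcription factors (right block) in each control library, with the mean as a bar and the detection level of 1 TPM as a dashed line. CD63, ITGA2B and FCGR2A lie near or above 180 TPM, whereas GP9, GP1BB, GP5, TREML1, PPBP, VWF and PF4 lie under 1 TPM in every library.

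Granule genes were split in the same manner. Of 28 genes for granule proteins, platelet enzymes and growth factors, 16 were detected (57.1%), a share near the 50.2% of coding genes. The highest were TIMP1, an inhibitor of metalloproteinases, at 361, 412 and 350 TPM, VAMP8, a SNARE protein of granule release, at 334, 327 and 350 TPM, and SRGN, the granule proteoglycan serglycin, at 130, 123 and 140 TPM. TGFB1, a growth factor stored in alpha granules, was measured at 116, 135 and 114 TPM. These 4 genes are also expressed by many other blood cells. Several genes of alpha granule contents were near absent: PF4 had 1 count in the 3 libraries, PF4V1 had none, PPBP had 34, VWF had 20 and F5 had 28. Others were detected at low levels, MMRN1, the granule protein multimerin, at 2.33, 1.43 and 2.26 TPM and SELP, the P-selectin of the granule membrane, counted with the surface receptors, at 3.16, 2.94 and 2.33 TPM. F13A1, the factor XIII A chain, had 14 counts. THBS1, thrombospondin, lay at the detection level with 1.28, 1 and 1.08 TPM. PTGS1, the cyclooxygenase that starts thromboxane synthesis, was in contrast well expressed at 45.64, 48.78 and 46.97 TPM, and TBXAS1, which completes it, was detected at 5.45, 6.95 and 6.39 TPM.

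Genes of the cytoskeleton and of integrin activation were mostly detected (20 of 23, 87.0%), with ACTB at 1152, 1332 and 1163 TPM, MYL6 at 976, 955 and 995 TPM, TUBB at 596, 643 and 616 TPM, TUBA1B at 421, 495 and 444 TPM and DIAPH1 at 296, 259 and 277 TPM. Most of these genes serve every cell type. The 3 members that were not detected were TUBB1, the beta tubulin of the platelet marginal band, with 8 counts, MYL9, a myosin light chain of platelets, with 1 count, and MYLK, a myosin light chain kinase, with 94 counts. FERMT3, the kindlin that activates ITGA2B-ITGB3, was by contrast at 84.8, 100.01 and 89.02 TPM.

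Transcription factors of both branches were detected in the same libraries. Such bulk values do not show whether the same cells expressed both. Of 28 factors, 25 were detected (89.3%), 18 stood at 10 TPM or more in all 3 libraries and the median level was 26.4 TPM. LYL1, a relative of TAL1, led at 98.9, 140 and 104 TPM, with replicate 2 far above the others, and was followed by HHEX at 92.4, 93.9 and 94.8 TPM. GATA2, the progenitor GATA factor, was measured at 82.2, 85.1 and 86.4 TPM and NFE2, the factor that drives platelet release, at 80.3, 87.8 and 78.5 TPM. The ranges of GATA2, NFE2, GFI1B and GATA1 overlapped in part, so their order is not resolved beyond the spread, although GATA2 exceeded GATA1 in 3 of 3 libraries (1.17 ± 0.129-fold). FLI1 stood at 13.4, 11.7 and 13.2 TPM, so that GATA1 exceeded it by 5.76 ± 1.12-fold, and KLF1 stood at 26.8, 39.7 and 30.2 TPM, above FLI1 in every library. The GATA1 cofactor ZFPM1 (FOG1) was low at 2.10, 4.94 and 2.44 TPM on 186, 240 and 202 counts. ETS1 and MEIS1 were under 1 TPM in all libraries, with 130 and 5 counts.

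The red cell programme was present in RNA, with fetal globin at its head. Gamma globin made up 92.5%, 92.1% and 93.2% of the summed TPM of 10 globin genes (92.6 ± 0.576%). These 10 genes held 0.836 ± 0.0219% of all TPM, or 1.38 ± 0.0432% with a further gene ID that overlaps the gamma globin genes and is described below. HBG2 was followed by the alpha globin gene HBA1 at 407, 483 and 393 TPM, embryonic HBE1 at 103, 96.4 and 94.8 TPM and HBA2 at 71.8, 74.2 and 52.9 TPM. The counts of HBA1 and HBA2 were not whole numbers in any library, so their separate levels and their order around HBE1 are uncertain. Adult HBB was measured at 13.9, 12.9 and 13.6 TPM, 575 ± 36.2-fold below HBG2. Embryonic HBZ and the alpha-like HBM had no count. RNA of the gamma chains exceeded that of the alpha chains by 15.8 ± 1.70-fold in TPM, in 3 of 3 libraries, and by 26.9 ± 2.84-fold with that gene ID counted as gamma.

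The division of gamma globin between its genes is uncertain. HBG1 was listed at 17.0, 21.5 and 16.2 TPM, but HBG1 and HBG2 are near-identical copies, and the counts of both were not whole numbers in any library. The overlapping gene ID, ENSG00000284931, was matched to no symbol here and is named AC104389.5 in GENCODE 29. There it spans the interval from HBG1 to HBG2 and overlaps both. In the same annotation HBG2 and HBE1 also overlap on the same strand. ENSG00000284931 was listed at 5216, 5631 and 5513 TPM with no whole counts either. With it added, the gamma globin sum was 13195 ± 407 TPM in place of 7742 ± 194 TPM and made up 95.5 ± 0.350% of globin TPM. BCL11A, the repressor of gamma globin in adult red cells, was detected at 8.17, 5.73 and 5.93 TPM on 249, 228 and 242 counts.

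Outside the globins, 31 of 33 erythroid genes were detected (93.9%, against 50.2% of coding genes), with a median of 16.1 TPM. The highest were GYPC, glycophorin C of the red cell membrane, at 288, 334 and 280 TPM, UROD, a haem synthesis enzyme, at 249, 274 and 255 TPM, BLVRB, a biliverdin reductase, at 176, 231 and 183 TPM, and RHAG, the Rh-associated glycoprotein, at 96.9, 89.2 and 101 TPM. ALAS2, the erythroid form of the first haem enzyme, stood at 10.03, 11.79 and 12.15 TPM and was below its housekeeping form ALAS1 at 24.9, 25.74 and 26.02 TPM in all libraries. Late genes were at the low end. SLC4A1 (band 3) was at 3.13, 2.86 and 3.07 TPM, the erythropoietin receptor EPOR at 3.35, 3.83 and 3.46 TPM, and AHSP, the alpha globin chaperone, was undetected with 10 counts.

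**Figure D3:**
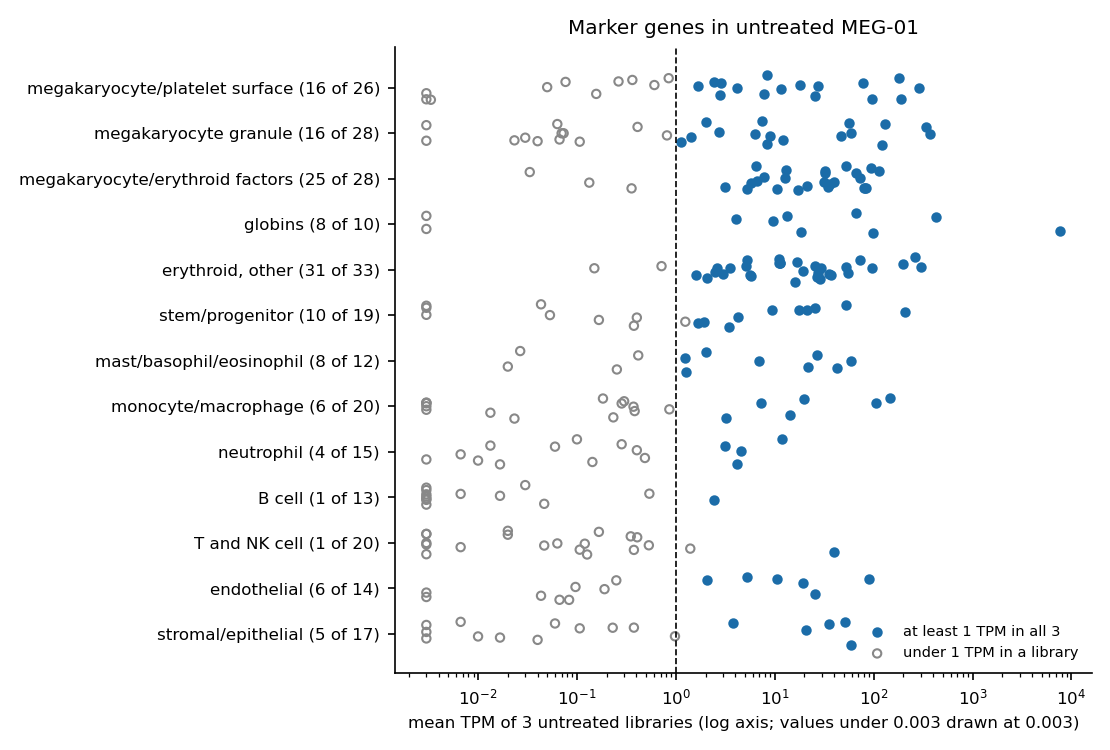
Mean TPM over the 3 control libraries (log axis) of every gene in 13 lists of lineage markers, 1 point per gene, filled where the gene had at least 1 TPM in all 3 libraries. Factors and erythroid genes lie almost wholly to the right of the dashed line at 1 TPM, whereas 12 of 13 B cell and 19 of 20 T and NK cell markers lie open, nearly all to its left.

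Stem and progenitor markers were mixed: 10 of 19 were detected (52.6%), a share near the 50.2% of coding genes. CD33, the myeloid lectin, was the highest at 197, 217 and 207 TPM, ahead of MLLT3 at 59.6, 45.2 and 51.5 TPM, HOXA9 at 25.29, 23.47 and 27.01 TPM and MSI2 at 21.6, 19.2 and 22.9 TPM. CD34 was under 1 TPM in all libraries with 81 counts, and PROM1 (CD133), FLT3 and AVP had no count. THY1 had 1 count, HLF 18 and MECOM 130. Of 39 HOX genes 16 were detected, led by HOXB2 at 49.82, 50.11 and 49.04 TPM, HOXB4 at 26.7, 26.9 and 26.8 TPM, HOXA9, and HOXB9 at 15.99, 15.52 and 16.11 TPM. HOXD13, the gene at the 5′ end of its cluster, was measured at 8.17, 8.71 and 8.74 TPM, whereas its neighbours HOXD8, HOXD9, HOXD10 and HOXD11 had no count and HOXD12 had 6.

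Markers of mast cells, basophils and eosinophils, which share GATA factors with megakaryocytes, were detected for 8 of 12 genes (66.7%, against 50.2% of coding genes). FCER1A, the alpha chain of the high-affinity immunoglobulin E receptor, was measured at 56.9, 57.7 and 63.6 TPM, and HDC, the enzyme that makes histamine, at 41.9, 41.8 and 45.2 TPM. PRG2, a granule protein of eosinophils, stood at 26.69, 25.77 and 26.95 TPM, with counts not whole in any library. CPA3, the mast cell carboxypeptidase, stood at 24.2, 17.7 and 23.2 TPM. FCER1A exceeded KIT, a surface marker of mast cells, by 17.6 ± 2.05-fold in TPM. The beta chain MS4A2 was under 1 TPM in all 3 libraries, as were CCR3, EPX and CMA1, with 66, 26, 5 and 1 counts. At a detection level of 2 TPM, 5 of the 12 remained.

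The remaining blood lineages were largely absent. Of 20 monocyte and macrophage markers 6 were detected. CD68, a lysosomal protein, stood at 150, 149 and 142 TPM and AIF1 at 111, 101 and 102 TPM. LYZ followed at 20.8, 18.3 and 20.2 TPM and FCGR1A at 15.96, 12.96 and 13.98 TPM. The counts of CD68, LYZ and FCGR1A were not whole in any library, so their levels are uncertain. TYROBP and ITGAM were detected at lower means of 7.24 and 3.20 TPM. CD14 and CSF1R, which define monocytes, were under 1 TPM in all 3 libraries with 79 and 94 counts, and CD163, FCN1, MPEG1, S100A12 and IRF8 had no count. Of 15 neutrophil markers 4 were detected (26.7%), the highest being GFI1 at 12.1, 11.9 and 11.9 TPM, CTSG at 4.60, 4.97 and 3.96 TPM, CEBPA at 4.02, 4.73 and 3.70 TPM and LCN2 at 2.98, 3.03 and 3.33 TPM. MPO, myeloperoxidase, had 2 counts, ELANE 6, AZU1 3 and PRTN3 1.

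Lymphoid genes were rarer still. Of 13 B cell markers only CD79B was detected (7.69%), at 4.05, 1.48 and 1.82 TPM on 29, 27 and 23 counts. None was at 2 TPM in all libraries. CD79A had 28 counts, BLNK 10 and CD22 2, while MS4A1, PAX5, EBF1, VPREB1, RAG2 and IGLL1 had no count. Of 20 T and NK cell markers only CD4 was detected (5.0%), at 41.8, 39.8 and 38.7 TPM, while NKG7 had 21 counts and CD3D 15, and CD3E, CD8B, LCK and ZAP70 had no count. Without replicate 2, CD247 joined CD4, at 1.63 and 1.83 TPM in replicates 1 and 3.

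Of 14 endothelial markers 6 were detected (42.9%), with ESAM at 85.48, 99.77 and 82.95 TPM, ENG at 24.08, 29.05 and 24.03 TPM, TIE1 at 19.9, 20.4 and 17.9 TPM and KDR, a VEGF receptor, at 12.3, 9.11 and 10.4 TPM. Megakaryocytes also express ESAM and PECAM1. The endothelial cadherin CDH5 had 6 counts and CLDN5 and SOX17 had none. Of 17 stromal, bone and epithelial markers 5 were detected (29.4%): KRT18 at 56.95, 66.24 and 54.9 TPM, KRT8 at 53.4, 56.0 and 45.8 TPM, the leptin receptor LEPR at 39.2, 28.8 and 37.9 TPM, EPCAM at 22.3, 18.9 and 21.5 TPM, and ACTA2 at 3.97, 3.65 and 3.63 TPM. The counts of both keratins were not whole in any library. CDH1, the epithelial cadherin, had 2 counts, KRT19, CXCL12 and PDGFRB had none and COL1A1 had 12, so the keratins and EPCAM were measured without the defining stromal or epithelial genes.

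On the cell surface, 30 of 37 adhesion, tetraspanin, checkpoint and antigen-presenting genes were detected (81.1%). B2M, the light chain of class I molecules, led at 793, 755 and 878 TPM. CD44, the hyaluronan receptor, stood at 476, 429 and 444 TPM and CD24 at 419, 409 and 433 TPM. HLA-E was at 228, 239 and 232 TPM, ICAM2, an adhesion molecule of platelets and endothelium, at 113, 138 and 117 TPM and BSG at 117, 135 and 113 TPM. The class I genes HLA-B and HLA-C lay lower, HLA-B at 61.28, 73.03 and 67.6 TPM and HLA-C at 70.3, 82.9 and 70.1 TPM, but these genes are highly polymorphic and their counts were not whole, so their levels relative to each other are uncertain. CD274 (PD-L1) had 29 counts and PDCD1LG2 had none.

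Of 26 integrin chains 10 were detected (38.5%). After ITGA2B came ITGA5, the fibronectin receptor chain, at 74.1, 81.5 and 73.5 TPM, its partner ITGB1 at 56.01, 37.84 and 53.5 TPM, and ITGAE at 22.3, 20.2 and 25.4 TPM. ITGB1 was lowest in replicate 2 and ITGA5 highest, so their ratio was 1.32, 2.15 and 1.37. ITGA2, the collagen-binding chain of platelets, was under 1 TPM in all 3 libraries with 158 counts. ITGAD, ITGA8 and ITGB6 had no count. By CPM in place of TPM the detected number was 18: integrin transcripts are long, and 8 further chains reached 1 CPM in all 3 libraries at under 1 TPM in some library.

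Of 63 cytokine, growth factor and death receptors 39 were detected (61.9%) and none reached 100 TPM. The common gamma chain IL2RG was the highest at 70.25, 66.96 and 66.3 TPM, followed by the TNF receptor TNFRSF1A at 53.6, 47.8 and 49.6 TPM, LEPR, and the interferon gamma receptor chain IFNGR2 at 30.86, 30.66 and 31.97 TPM. IL2RG exceeded its partner IL2RB, at 1.39, 0.85 and 1.10 TPM, by 63.2 ± 14.3-fold. The common beta chain CSF2RB stood at 16.82, 17.02 and 17.82 TPM. EGFR, FLT3 and PDGFRB had no count.

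Of 48 G protein coupled receptors of blood cells 17 were detected (35.4%), below the share of coding genes. PTGER3, a prostaglandin E2 receptor, led at 28.6, 31.1 and 31.3 TPM, with F2R, F2RL3 and the adenosine receptor ADORA2B at 15.07, 16.02 and 16.76 TPM behind it. The ranges of PTGER3 and F2R overlapped. CXCR4, the receptor that holds megakaryocytes and progenitors in the marrow, was under 1 TPM in all libraries with 36 counts, and its ligand CXCL12 had no count. TBXA2R, the thromboxane receptor, was at 0.60, 0.92 and 1.02 TPM. At a detection level of 2 TPM, 9 of the 48 remained.

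Of 38 ligand genes 12 were detected (31.6%). After TGFB1 came IL1B, interleukin 1 beta, at 87.7, 90.8 and 92.7 TPM, VEGFA at 58.2, 48.7 and 60.4 TPM and IL18 at 32.76, 33.04 and 32.34 TPM. IL6 was detected at 4.82, 6.93 and 6.57 TPM. Among growth factors of blood cell lineages, CSF1 was detected at 7.07, 8.27 and 8.60 TPM and FLT3LG at 2.85, 4.53 and 3.86 TPM. THPO had 1 count and KITLG 7, and no count fell on EPO, IL3 or IL11. TNF had 5 counts and PDGFB none.

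Among 35 nonreceptor tyrosine kinases and their regulators, 26 were detected (74.3%). CSK, the kinase that restrains the SRC family, was the highest at 62.6, 71.1 and 65.7 TPM, then the phosphatase PTPN6 (SHP-1) at 53.4, 50.2 and 49.7 TPM, BTK at 52.8, 44.5 and 49.8 TPM and the phosphatase PTPRC (CD45) at 38.96, 30.68 and 37.5 TPM. Within the SRC family the levels ran from FYN at 33.9, 24.3 and 28.6 TPM through LYN at 23.9, 20.6 and 23.1 TPM and YES1 at 16.6, 10.4 and 16.3 TPM to SRC at 7.15, 6.65 and 6.68 TPM. FYN exceeded LYN in 3 of 3 libraries with ranges that nearly touched, whereas both lay far above SRC. FGR had 11 counts, and LCK and BLK had none. CSK exceeded SRC by 9.76 ± 0.973-fold.

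The partner genes of the Philadelphia translocation were both expressed, ABL1 at 31.1, 27.1 and 30.3 TPM and BCR at 10.2, 6.43 and 8.74 TPM. ABL1 exceeded BCR by 3.05-, 4.21- and 3.47-fold. Values per gene do not separate reads of the fusion from reads of the unrearranged genes. Of 32 STAT, SOCS and phosphoinositide 3-kinase genes 26 were detected (81.25%). SOCS2, a feedback gene induced by STAT5, was the highest at 138, 133 and 151 TPM. AKT1 followed at 82.2, 89.9 and 81.3 TPM, then STAT5A at 68.1, 71.5 and 69.8 TPM, the lipid phosphatase INPP5D (SHIP1) at 69.4, 61.7 and 65.1 TPM, and STAT3 at 56.9, 51.8 and 58.8 TPM. CISH, another STAT5 target, was at 30.7, 39.1 and 30.5 TPM. Of the JAK kinases, which were counted with the tyrosine kinases above, JAK2, the kinase of the EPO receptor, was at 1, 0.66 and 0.90 TPM and missed the detection rule, although JAK1 at 31.7, 22.8 and 29.03 TPM and TYK2 at 31.7, 31.19 and 28.96 TPM passed it.

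**Figure D4:**
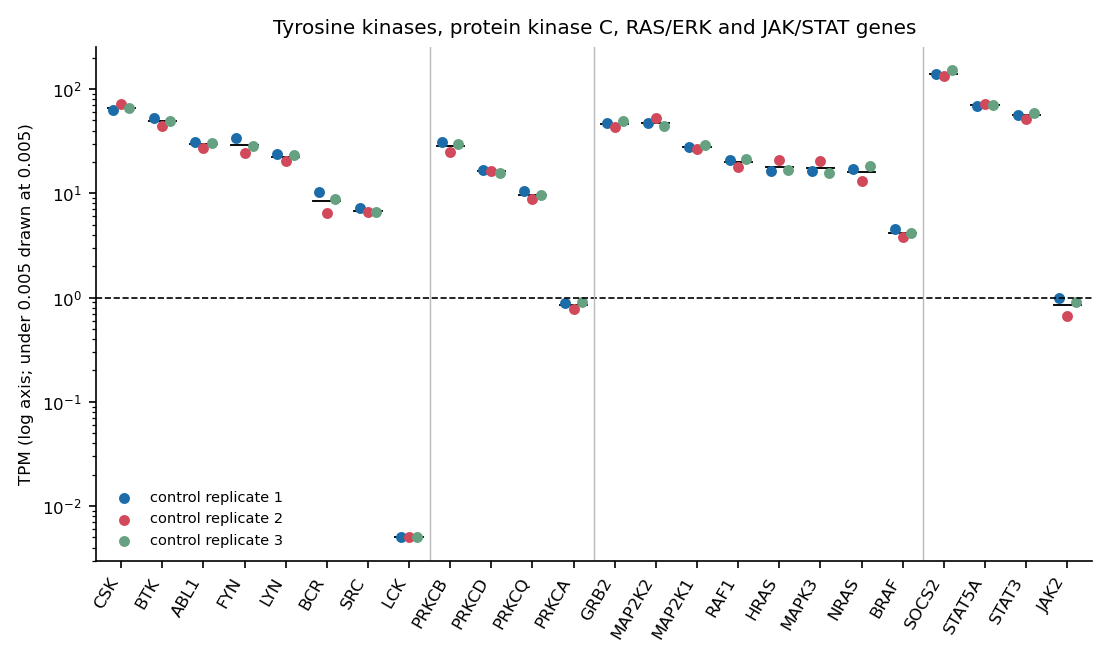
TPM (log axis) of tyrosine kinase genes, protein kinase C genes, RAS to ERK genes and JAK, STAT and SOCS genes, from left to right in 4 blocks, in each control library, with the mean as a bar and the detection level of 1 TPM as a dashed line. LCK had no count, and PRKCA and JAK2 lie at or under the line.

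Of 43 genes of the RAS, RAF, MEK and ERK cascade 37 were detected (86.0%) and none reached 100 TPM. The adaptor SHC1 was the highest at 61.2, 64.3 and 62.5 TPM, followed by the ERK-activated kinase RPS6KA1 at 47.03, 48.99 and 49.38 TPM, MAP2K2 (MEK2) at 46.7, 52.2 and 43.8 TPM and GRB2 at 46.9, 43.2 and 49.4 TPM. Among the RAS genes, HRAS was measured at 16.5, 20.6 and 16.6 TPM and NRAS at 17.1, 13.2 and 18.3 TPM, so that their ranges overlapped and their order changed in replicate 2. MAPK3 (ERK1) stood at 16.4, 20.3 and 15.8 TPM, highest in replicate 2. The ERK phosphatase DUSP6 was at 41.3, 39.4 and 41.9 TPM, whereas its relative DUSP4 had 33 counts.

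Phorbol esters act through protein kinase C, and its isoforms were very unequal in the untreated controls. Of 12 protein kinase C and D genes 9 were detected. PRKCB was the highest at 31.3, 24.9 and 29.4 TPM, then PRKD2 at 21.18, 24.53 and 21.96 TPM, PRKCD at 16.8, 16.2 and 15.7 TPM and PRKCQ at 10.5, 8.78 and 9.54 TPM. PRKCB exceeded PRKD2 in 3 of 3 libraries, but by little in replicate 2. PRKCA, another classical isoform, was under the detection level at 0.88, 0.77 and 0.91 TPM, 33.4 ± 1.85-fold below PRKCB.

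MYC stood well above its network. Of 13 genes 11 were detected (84.6%), with MAX, the partner of MYC on DNA, at 120, 107 and 124 TPM, MLX at 40.1, 41.6 and 41.8 TPM and MXI1 at 16.7, 14.3 and 17.8 TPM. MYC exceeded MAX by 3.38 ± 0.343-fold and MYCL, at 2.62, 2.87 and 2.52 TPM, by 148 ± 7.71-fold, and MYCN had 6 counts. The remaining MAX partners that oppose MYC (MXD1, MXD3, MXD4, MNT and MGA) had means from 2.75 to 6.28 TPM.

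Of 35 cell cycle and BCL2 family genes 32 were detected (91.4%). CDKN2A, the locus of the inhibitors p16 and ARF, was the highest at 411, 503 and 411 TPM, with counts not whole in any library. CDK4, the kinase that p16 binds, stood at 161, 184 and 157 TPM, and BCL2L1 (BCL-XL), the survival gene on which platelets depend, at 120, 124 and 122 TPM. BAX stood at 67.03, 84.38 and 74.5 TPM. BCL2L1 exceeded BCL2, at 6.07, 4.89 and 6.49 TPM, by 21.3 ± 3.59-fold, and MCL1, at 40.8, 33.5 and 41.1 TPM, by 3.21 ± 0.439-fold. CDK4 exceeded CDK6 by 71.0-, 140- and 80.7-fold, so the ratio was highest in replicate 2. The CDK inhibitor CDKN1A (p21) was measured at 11.7, 14.9 and 12.9 TPM.

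Genes that handle arsenic are listed because the series treats the line with an arsenic sulfide. Before treatment 15 of 20 were detected. MT2A, a metallothionein that binds metals through its cysteines, stood at 358, 396 and 344 TPM, GSTO1, an enzyme that reduces methylated arsenic, at 207, 234 and 207 TPM, GSTP1, a glutathione transferase, at 135, 165 and 125 TPM and MT1G at 119, 110 and 103 TPM. The metallothioneins have short transcripts: MT2A had 3794 counts over the 3 libraries and GSTP1, at a lower TPM, had 5212. AS3MT, the arsenic methyltransferase, had no count, and the uptake channels AQP9 and AQP7 had 2 and 1 counts, while AQP3 was detected at 6.83, 7.78 and 6.59 TPM.

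The most abundant RNAs were those of translation and of the mitochondrial genome. The 83 detected of 85 cytosolic ribosomal protein genes held 40.1 ± 0.224% of all TPM and the mitochondrial genome 14.7 ± 0.458%, while 58 genes together reached 50% of the total. The 20 genes with the highest mean TPM held 28.6 ± 0.315% and included, in falling order, MT-ATP8, RPS18, MT-ND3, MT-CO3, RPS29, RPL37A, MT-CO2, RPL41, RPS27, EEF1A1, RPS23, RPL10, MT-CO1, RPS10, RPL13A, MT-ND4L and RPL27. EEF1A1, the translation elongation factor that carries transfer RNA, was the 1 member outside these classes, at 11350, 10375 and 11348 TPM. HBG2 ranked 25 among all genes and was the second outside these classes, ahead of EEF1G at 6709, 6944 and 6989 TPM, TPT1 at 6409, 6343 and 6659 TPM and the ferritin light chain FTL at 4524, 5509 and 4738 TPM.

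This order depends on length. MT-ATP8, a subunit of the mitochondrial ATP synthase, was listed at 40364, 37165 and 34585 TPM on 5221, 5234 and 5172 counts, and stood only 499 in order by counts. Counts divided by TPM are proportional to the effective length that was used. The quotient was scaled to nt in each library by a line fitted to GENCODE 29 transcript lengths, so the lengths here are estimates. For MT-ATP8, whose transcript in GENCODE 29 is 207 nt long, the estimate was 4.95, 5.50 and 5.54 nt. The line was fitted on longer genes with 1 transcript. In these the quotient was proportional to the transcript length less 273.5, 269.9 and 269.5 nt in the 3 libraries, with a median deviation of 0.830%, 0.865% and 0.838%. MT-ND3 (80.4 nt), MT-ND4L (42.3 nt), RPS29 (41.99 nt) and RPS27 (87.5 nt) were short in the same sense. In all, 77 detected genes with an implied effective length under 100 nt held 12.2%, 11.4% and 11.5% of TPM, 5 of them among the top 20. By counts EEF1A1 was first with 23147 ± 849 CPM, then MT-CO3 with 15963 ± 1202 and MT-CO1 with 15409 ± 234, and the ribosomal proteins held 19.7 ± 0.584% and the mitochondrial genome 8.04 ± 0.150% of counts.

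**Figure D5:**
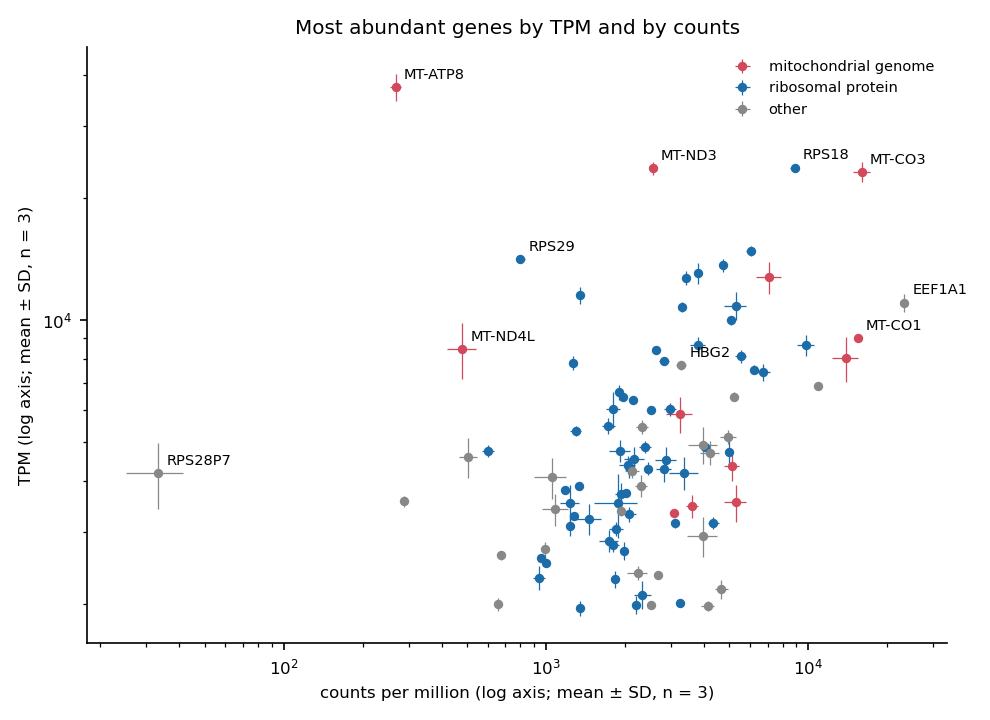
Mean TPM against mean CPM (both log axes, bars ± SD, n = 3) for genes among the highest 100 by TPM or the highest 20 by counts, coloured by class, with 1 gene of the Y chromosome not drawn. MT-ATP8 is first by TPM at 267 CPM, whereas EEF1A1 is first by counts.

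Replicate 2 was set against the mean of the other libraries gene by gene. Among 5039 genes that averaged 10 TPM or more, 21 were more than 1.5-fold above and 73 more than 1.5-fold below that mean. Replicate 2 was itself the library furthest from the middle value, on a log scale, in 18 of the 21 and 54 of the 73. It was so in 7 of the 10 genes furthest above and in 0 of the 10 furthest below, where replicate 1 stood apart in 8 and replicate 3 in 2. TTC38 was listed at 10.2, 43.8 and 10.1 TPM on 517, 510 and 522 counts, and GPR107 at 47.8, 4.95 and 5.18 TPM on 847, 728 and 850 counts, so that replicate 2 stood apart in the one and replicate 1 in the other. Their TPM moved by 4.35-fold and 9.65-fold while their CPM stayed within 1.07-fold and 1.11-fold. HOOK2, at 26.6, 4.45 and 6.31 TPM on 289, 250 and 271 counts, was alike. Other extreme entries rested on few reads: ENSG00000287779 was listed at 0, 44.3 and 0 TPM on 1.93 counts, RNVU1-32 at 71.6, 0 and 0 TPM on 1.99 counts, and ENSG00000289653 and ENSG00000232032 at 67.3 and 48.6 TPM in replicate 3 alone on 1.88 and 2 counts. The small nuclear RNA copies RNU1-1, RNU1-3, RNU1-4 and RNU1-27P, with ENSG00000275405, each carried the same 64.6, 6.20 and 9.79 TPM on 2.33 counts. NDUFS7, a complex I subunit, differed in counts as well, with 576, 909 and 591 counts and 41.3, 68.7 and 39.1 TPM. RMRP, C4orf48, SLX1A, MRPL55, ELOVL6, ENSG00000280096 and ENSG00000279753 made up the rest of the 10 highest, at 1.70- to 2.59-fold.

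Over all detected genes, 1572 differed by more than 1.5-fold in TPM between some pair of libraries. In 140 of these (8.91%) the CPM stayed within 1.2-fold, 26 of them at a mean of 10 TPM or more. KDM6B, a histone demethylase, was listed at 11.5, 6.16 and 19.7 TPM on 1035, 1018 and 983 counts. PLA2G12A was listed at 4.01, 16.4 and 28.2 TPM on 321, 305 and 360 counts. Of the 10751 detected genes, 95 had under 10 counts in some library.

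The upstream sequence of the detected genes was summarised as well. A RefSeq promoter was matched for 7983 of 9587 detected coding genes with a unique symbol (83.3%). The ratio of observed to expected CpG over 250 upstream bases had a median of 0.840 (quartiles 0.699 and 0.955) in these. It was 0.893 in 89 genes at 1000 TPM or more. Of undetected coding genes 76.7% were matched, under the same minimum of 80%, so the comparison with them is void. The promoters of HBG2, HBA1, MYC and PF4 were not matched.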

How the data were processed

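Poly(A)-selected RNA of 9 MEG-01 libraries was sequenced, per the labels, after preparation with the NEBNext Ultra II kit. The 3 control libraries, with replicate numbers from the sample titles, were used here, from the single table that sets them beside As2S2. The authors deposited, per the file headers, estimated counts (expected counts) per gene, not normalized, and TPM values, which sum to the same total in each library. Among values above 0, 72.0% to 73.4% of the estimated counts were whole within 0.001. Genes whose counts were not whole are marked above only in part. Per the submitters' processing notes fastp 0.22.0 and DESeq2 were used. Those notes name zebrafish genome builds, and the organism label of 1 control is not human, whereas the gene IDs are human. Which aligner, counter, strand setting and annotation were used is not given in the sources used here, and reads of overlapping antisense genes cannot be told apart.

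Symbols were matched for 62666 of 63241 IDs, and coding genes by RefSeq. TPM were used as deposited, with mean and SD over 3 libraries computed in Python 3.11.15 (pandas 2.3.3). Transcript lengths came from GENCODE 29, which may not be the authors' annotation. The scripts were tested on simulated data with a single transcript length per gene, always longer than the fragment. That test did not cover shorter transcripts, genes with several transcripts or reads shared between genes. TMM factors came from edgeR 4.0.16, on counts rounded to whole numbers. Promoters came from the RefSeq table (GRCh38.p14), with the first listed start of each gene.

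The 27 gene lists (691 genes) and the markers were chosen with earlier results of these data known. Genes named were the 20 highest by mean TPM, the 5 markers, in each list the 4 highest, every member at 100 TPM or more in all 3 libraries and up to 6 lineage-defining members under 1 TPM, and the 10 genes furthest up and down in replicate 2. Other genes named were chosen after their values were seen, and 2 listed genes with several IDs are left unnamed. Some genes that fall under this rule are not reported here. Alternatives were other detection levels, counts in place of TPM, other scalings and each replicate left out.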

Additional observations from a re-analysis of the deposited data

How the results depend on the processing

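The results were recomputed under 221 alternatives, and 202 stayed within the replicate SD or, for counts of genes, within 1.5 times. This tally includes shares and levels with 1 replicate left out, which cannot move by the SD and so stayed by construction. The number of detected genes ran from 9135 at 2 TPM to 12192 at 1 CPM. Leaving out a replicate gave 10881 to 11093. The alternatives with at least 10 counts per library, without MT-ATP8 and with the gene ID spanning both gamma globin genes were chosen after seeing the data. No paired analysis was possible because the result comes from no test and only 1 group was used.

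At 2 TPM the mast cell, basophil and eosinophil list had 5 detected genes, the B cell list 0 and the G protein coupled receptor list 9. At 0.5 TPM the T and NK cell list had 2, as it did without replicate 2, against 1 to 2 over the left-out replicates, and at 1 CPM it had 3. The integrin list had 18 at 1 CPM. As shares of counts, the 20 most abundant genes held 12.4%, the mitochondrial genome 8.04% and ribosomal proteins 19.7%. The 20 most abundant genes held 25.6% without the mitochondrial genome and 26.7% without MT-ATP8. Ribosomal proteins held 47.0% of TPM rescaled without the mitochondrial genome. Gamma globin held 95.5% of globin TPM with the gene ID spanning both genes. The same rescaling without the mitochondrial genome multiplied every level alike, to 222 TPM for ITGA2B, 85.4 for GATA1, 9056 for HBG2, 4 for KIT and 462 for MYC. TMM and median-of-ratios factors and each left-out replicate moved these 5 levels by less than their SD. For a left-out replicate this was fixed in advance, because a mean of 3 values cannot move by its SD when 1 is dropped. The scaling factors were centred on their geometric mean, so they could hardly move a mean level either. Neither outcome is a sign of stability. Depth limits the undetected genes: with 1 to 20 counts over 3 libraries their levels cannot be ordered.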
